A study of Oryza sativa Japonica Group with 16 samples.

Results

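Windows that lost CHH methylation in LR initials of both *ta2* and *OxDRM2*, and that were listed in neither CR comparison, were examined as a set. The authors deposited 1 table for each of *ta2* CR, *OxDRM2* CR, *ta2* LR and *OxDRM2* LR, each comparing stage 1 initials with the wild type. A table lists windows of 1000 bp, placed every 100 bp, whose CHH methylation differed by at least 10 percentage points with a q-value under 0.01. Members were chosen by these differences: a position was taken where the value was below 0 in both LR tables and where no CR table listed the same position. Chromosome 9 and the end of chromosome 8 beyond position 23670800 were left out, since the *ta2* CR table that was read stops there. The rule gave 1141 member windows among 3454187 window positions on 11 chromosomes, or 0.033% of the positions. The same values are therefore given as a description, without a test.

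All plants were *Oryza sativa* japonica of the Zhonghua 11 background. CR and LR initials of stage 1, the cell clusters without visible differentiation, were cut out of sections by laser microdissection. *ta2* carries a point mutation in *DNG702* that changes its splicing, and was used because a knockout of this gene is lethal. *OxDRM2* plants carry *DRM2* under a ubiquitin promoter, so that the transgene is not limited to root initials. Each of these 4 groups had 2 biological replicates, 8 BS-seq libraries in all, and the tables give a single value per window for both replicates together. The wild type libraries of the same root type and stage come from another series, so genotype and series cannot be told apart. Both LR tables use the same wild type LR libraries, and a value of these libraries enters both columns of every member. Among the study's BS-seq groups, the replicate correlation was lowest for the wild type LR libraries of this stage. The study also lists lower unique mapping ratios for both *ta2* and *OxDRM2* than for the wild type. For most *OxDRM2* libraries, however, the listed ratio is lower than the listed read counts give. The second *OxDRM2* LR replicate had the fewest uniquely mapped reads of all BS-seq libraries of the study. The tables hold no counts of reads or cytosines, so the depth behind a window is unknown from them and no interval is given.

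BS-seq reads which cytosines of bisulfite treated DNA are methylated. CHH sites, where H is A, C or T, have no matching CHH site on the opposite strand that could be copied after replication, so their methylation has to be set anew. In plants, DRM2 is the methyltransferase that small RNAs guide to CHH sites in RNA-directed DNA methylation, mostly at transposons and their edges, while DNA glycosylases of the DNG family, such as DNG702, cut out methylated cytosines so that unmethylated ones replace them. Weaker demethylation in *ta2* and more methyltransferase in *OxDRM2* thus both act towards gain. Following the study's account that CHH methylation was higher overall in both materials, values above 0 were taken to mean more methylation in the mutant than in the wild type. Under this reading, hyper windows took 9.67% of the window positions in *ta2* LR and 12.6% in *OxDRM2* LR, whereas hypo windows took 0.13% in *ta2* LR and 0.141% in *OxDRM2* LR. The members belong to this small class.

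The way from the LR hypo windows to the members was as follows. Of 4497 hypo windows in *ta2* LR and 4858 in *OxDRM2* LR, 2065 were hypo in both (0.0598% of the positions), which is 45.9% of the former and 42.5% of the latter. A further 2399 windows were hypo in *ta2* LR and not listed in *OxDRM2* LR, with a median of -14.6 points. In *OxDRM2* LR, 2778 windows were hypo without being listed in *ta2* LR, with a median of -17.2 points. Opposite directions were rare, with 33 windows hypo in *ta2* LR and hyper in *OxDRM2* LR and 15 windows the other way round. Of the 2065 windows hypo in both LR tables, 924 were listed in a CR table at the same position and were set aside. Most of these had gained methylation in CR. Hyper windows of *OxDRM2* CR accounted for 838 of the 2065, or 40.6%, where 23.6% of all positions were hyper in that table, and hyper windows of *ta2* CR accounted for 429, or 20.8%, where 10.4% of all positions were hyper. All positions include any that were not covered, whereas the 2065 were covered in LR. The shares are thus not of like sets, and their difference was not tested. Hyper in both CR tables were 369 windows, and 31 were hypo in a CR table. The remaining 1141, or 55.3%, are the members.

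Losses at the members ranged from just past the limit of the tables to nearly complete. In *ta2* LR, the lowest difference was -99.1 points, the median -22.4 points and the highest -10.01 points, with quartiles of -35.7 and -15.7 points. In *OxDRM2* LR, the lowest was -98.0 points, the median -21.4 points and the highest -10.03 points, with quartiles of -33.9 and -14.6 points. The members nearest the limit had -10.01 points in *ta2* LR beside -10.8 points in *OxDRM2* LR, and -12.1 points in *ta2* LR beside -10.03 points in *OxDRM2* LR. Below -20 points in both mutants lay 563 members, or 49.3%, and below -50 points lay 132, or 11.6%. Losses below -80 points in both were found at 46 members in 10 regions, and losses below -90 points at 35 members in 6 regions on 4 chromosomes. The study's methods name Fisher's exact test for bins of another width. Which test gave the p-values of these windows, and whether it took replicate spread into account, is not known. The p-values in the authors' tables were at most 0.00121 in *ta2* LR and 7.23e-05 in *OxDRM2* LR, and were under 1e-10 at 1048 and 1080 of the members, respectively.

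A loss sets limits to the levels behind it, although the levels themselves are not in the tables. The wild type must be methylated at least as much as the mutant lost, and the mutant can hold at most the rest. At 143 members, or 12.5%, the wild type LR level was thereby at least 50%, and at 39 members, or 3.42%, at least 90%. The lowest window lay on chromosome 4 from 11318401 to 11319400, with -99.1 points in *ta2* LR and -97.0 in *OxDRM2* LR. There the wild type level was at least 99.1%, the *ta2* level at most 0.89% and the *OxDRM2* level at most 3.04%. The global CHH level that the study gives for wild type LR of this stage is far lower. Such a window is thus far from typical, and how many cytosines it rests on is unknown.

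Both mutants lost nearly the same amount at most members. Since the rule asked for a loss in both, and the same wild type libraries enter both values, this likeness is in part built in. The value of *OxDRM2* minus that of *ta2* had a median of 1.05 points, with quartiles of -0.57 and 2.75 points, and was within 5 points at 945 members, or 82.8%. If both tables used the same wild type level, this subtraction leaves only the mutants, and so compares *OxDRM2* with *ta2* directly. The loss was smaller in *OxDRM2* at 788 members, or 69.1%, and smaller in *ta2* at 348 members, or 30.5%. This order was not particular to the members. The windows hypo in both LR tables and listed in CR had medians of -18.5 points in *OxDRM2* LR and -19.8 in *ta2* LR. Counted by merged region, the loss was smaller in *OxDRM2* in 312 regions and in *ta2* in 135 regions. The share hardly depended on the size of the loss, with the *OxDRM2* loss smaller at 70.2% of members whose lower value was above -20 points and at 67.8% of those whose lower value was below -50 points. A gap above 10 points was found at 62 members, 38 with the smaller loss in *OxDRM2* and 24 with the smaller loss in *ta2*. Without values per replicate, none of these gaps can be set against replicate spread.

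**Figure D1:**
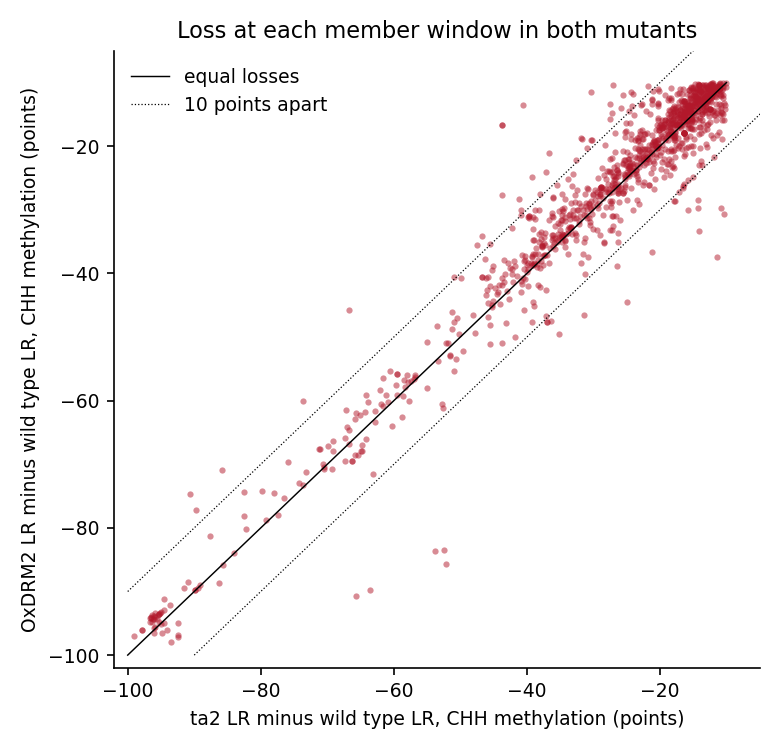
Difference in CHH methylation from the wild type at each of the 1141 member windows, in percentage points, for *ta2* LR (horizontal axis) and *OxDRM2* LR (vertical axis). The solid line marks equal losses and the dotted lines a gap of 10 points, outside which 62 windows lie; the same wild type libraries enter both axes.

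Gaps above 10 points lay in 42 regions, of which the following were picked after their values were seen. On chromosome 1, the windows starting at 39492301 and 39492401 had -52.5 and -52.1 points in *ta2* LR against -83.6 and -85.6 points in *OxDRM2* LR, and the second of these had the widest gap of all members. On chromosome 6 from 25200801 to 25201800, a single member had -53.8 points in *ta2* LR against -83.6 points in *OxDRM2* LR. On chromosome 7 from 12545501 to 12546800, 4 members averaged -12.4 points in *ta2* LR and -30.8 in *OxDRM2* LR. The opposite order was seen on chromosome 12 from 9774501 to 9775700, where 3 members averaged -42.7 points in *ta2* LR and -15.7 in *OxDRM2* LR. On chromosome 4 from 34327401 to 34328600, 3 members also had the larger loss in *ta2* LR, at -30.8 points against -18.9 points.

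The sizes were set beside those of other windows. The same rule with the root types exchanged, that is, hypo in both CR tables and listed in neither LR table, gave 344 windows, in tables where 0.131% of the positions were hypo in *ta2* CR and 0.0442% in *OxDRM2* CR. Their median was -16.9 points in *ta2* CR and -13.8 in *OxDRM2* CR. In *ta2* CR the lowest of them was -53.4 points, and 1 window lay below -50 points. In *OxDRM2* CR the lowest was -39.8 points and 0 windows lay below -50 points, whereas 140 members in *ta2* LR and 135 in *OxDRM2* LR did. These are overlapping windows. The members below -50 points in both mutants lay in 39 merged regions, and a single region on chromosome 1 held 23 of them. The 924 windows that were hypo in both LR tables and listed in CR had medians of -19.8 points in *ta2* LR and -18.5 in *OxDRM2* LR, with 6.49% and 6.06% of them below -50 points, where the members had 12.3% and 11.8%. Large differences were not limited to losses. Windows hyper in both LR tables and listed in neither CR table numbered 27661, with medians of 20.9 points in *ta2* LR and 18.2 in *OxDRM2* LR, and 9.44% and 8.23% of them were above 50 points. Since the limits of the rule shape each of these sets, these are descriptions.

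**Figure D2:**
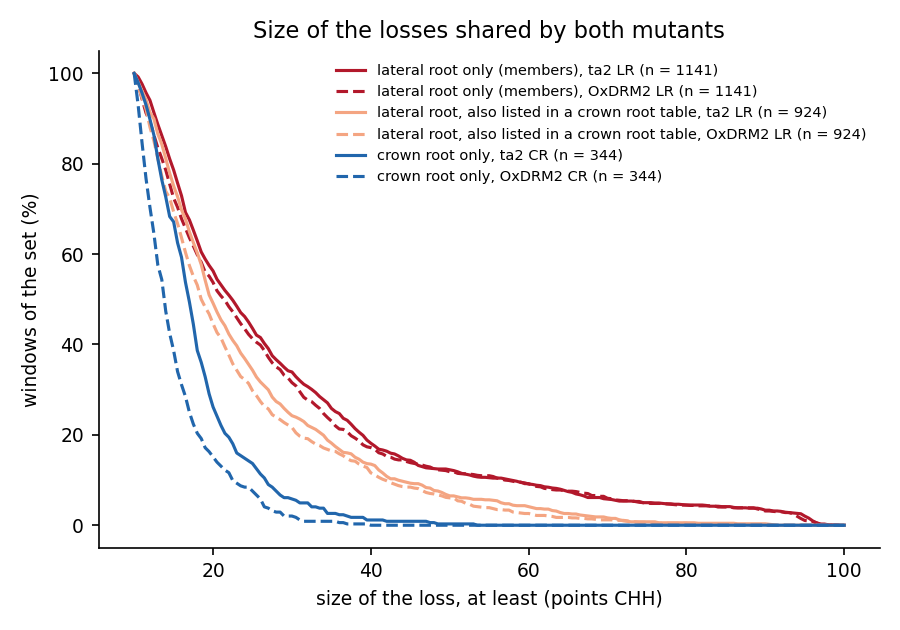
Share of windows (%) whose loss of CHH methylation reached at least the size on the horizontal axis, in percentage points, for the members, for windows also listed in a CR table, and for losses in CR only; solid lines are *ta2* and dashed lines *OxDRM2*. The curves of the members reach past 90 points, while no loss in CR only went below -53.4 points in *ta2* CR or -39.8 points in *OxDRM2* CR.

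Neighbouring windows share 900 bp, and the 1141 members merged into 449 regions that span 528200 bp, or 0.153% of the sequence compared. The median region was 1100 bp long and the longest 4100 bp. A single window made up 223 regions, 168 regions had 2 to 4 windows, and 58 had 5 or more. These 58 regions held 462 members, or 40.5%. Losses were larger in longer regions, an order that is in part built in. A deeper loss keeps more of the overlapping windows past the limit of 10 points. The median of the region means was -17.4 points in *ta2* LR and -15.9 in *OxDRM2* LR for regions of 1 window, and -34.2 and -34.5 points for the 16 regions of 10 or more windows. The region means lay below -50 points in both mutants in 29 regions, and below -80 points in 6.

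With 23 windows, the region on chromosome 1 from 39492301 to 39496400 (build RGAP version 7.0, as for all positions given here) had the most members. Its values in *ta2* LR ran from -96.7 to -52.1 points with a mean of -89.2 points, and in *OxDRM2* LR from -94.8 to -83.6 points with a mean of -92.5 points. Apart from the first 4 windows, where *ta2* lost less, every member of the region was below -90 points in both mutants. Inside the region, a gap between the members began with windows hypo in *OxDRM2* LR alone and went on with positions in no table. Among the first windows, 2 positions were hypo in both LR tables but hyper in *ta2* CR, the higher of them by 13.7 points, and *OxDRM2* CR listed no window that touched the region. A smaller region 10 kb or less away brought this part of chromosome 1 to 27 members.

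Chromosome 4 held a dense group of 4 regions with 26 members from 11315801 to 11329000. In the first region, 6 windows averaged -88.8 points in *ta2* LR and -86.1 in *OxDRM2* LR. In the second, from 11317601 to 11319400, 7 windows averaged -76.9 and -74.9 points and included the lowest member. Between these regions, both LR tables listed further losses at positions where *OxDRM2* CR was hyper, and the *OxDRM2* CR windows that touched the first region had a median gain of 17.1 points. Thus the loss in LR and the gain in *OxDRM2* CR fell on the same positions between these regions. *ta2* CR listed no window that touched either region.

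The same depth of loss was reached on chromosome 11. From 20573301 to 20574900, 7 windows averaged -92.7 points in *ta2* LR and -92.4 in *OxDRM2* LR, the lowest mean over both tables of all regions with 5 or more windows. Its first window had -70.6 and -70.0 points, and the other 6 windows lay between -97.8 and -94.8 points in *ta2* LR. No window of *ta2* CR touched it, and a single window of *OxDRM2* CR did, at 14.4 points. A second region, from 14446801 to 14448300, had 6 windows that averaged -77.0 points in *ta2* LR and -77.2 in *OxDRM2* LR. Its values weakened along the sequence from -94.1 to -57.4 points in *ta2* LR, and the 8 *OxDRM2* CR windows that touched it were hyper. The region with most windows on this chromosome, from 14599301 to 14601200, was far weaker, with means of -24.2 and -24.5 points over 8 windows.

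On chromosome 6, 3 regions from 1388801 to 1395400 held 32 members, the most of any group of regions lying within 10 kb of each other. The first, with 14 windows, started at -76.0 points in *ta2* LR and -69.7 in *OxDRM2* LR and ended at -15.6 and -14.6 points. The window 200 bp before its start was hyper, at 17.5 points in *ta2* LR and 45.8 in *OxDRM2* LR, although it shares 800 bp with the first member. The third region of this group, from 1393401 to 1395400, went the other way, from -25.6 points in *ta2* LR at its start to -86.3 points in the second last window, with a mean of -47.6 points in *ta2* LR and -46.7 in *OxDRM2* LR. Hyper windows touched it in all 4 tables, with medians from 21.7 to 31.9 points. A separate region of 10 windows, from 9360601 to 9362500, had an even loss, from -45.3 to -29.3 points in *ta2* LR and from -44.9 to -29.8 points in *OxDRM2* LR. Hyper windows of all 4 tables touched this region too, among them 7 of *OxDRM2* CR with a median gain of 23.4 points.

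Other regions with many members stood free of CR windows. On chromosome 12 from 20647901 to 20650100, 13 windows averaged -61.9 points in *ta2* LR and -63.3 in *OxDRM2* LR, and no hyper window of any table touched them. Also untouched by CR windows were chromosome 4 from 34662901 to 34664900, with 11 windows averaging -39.4 points in *ta2* LR and -39.3 in *OxDRM2* LR, and chromosome 1 from 40101101 to 40103100, with 11 windows averaging -35.1 and -33.7 points. Weaker losses made up the region on chromosome 10 from 10789601 to 10791600, with 11 windows averaging -28.6 and -25.8 points, and that on chromosome 5 from 26349601 to 26351800, with 13 windows averaging -23.5 and -20.7 points. On chromosome 8 from 16371701 to 16373600, *OxDRM2* LR had the larger loss in all 10 windows, with means of -33.3 points in *ta2* LR and -38.1 in *OxDRM2* LR.

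On the remaining chromosomes, the longest regions had 8 to 10 windows. Chromosome 7 from 29072701 to 29074600 averaged -56.5 points in *ta2* LR and -55.5 in *OxDRM2* LR over 10 windows, and weakened from -71.1 to -38.0 points in *ta2* LR along its length. Chromosome 2 from 2983901 to 2985800 averaged -29.8 points in *ta2* LR and -29.7 in *OxDRM2* LR over 10 windows, and 5 *OxDRM2* CR windows with a median gain of 28.2 points touched it. Chromosome 3 from 4005001 to 4006700 averaged -33.6 and -27.4 points over 8 windows, and hyper windows of all 4 tables touched it.

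**Figure D3:**
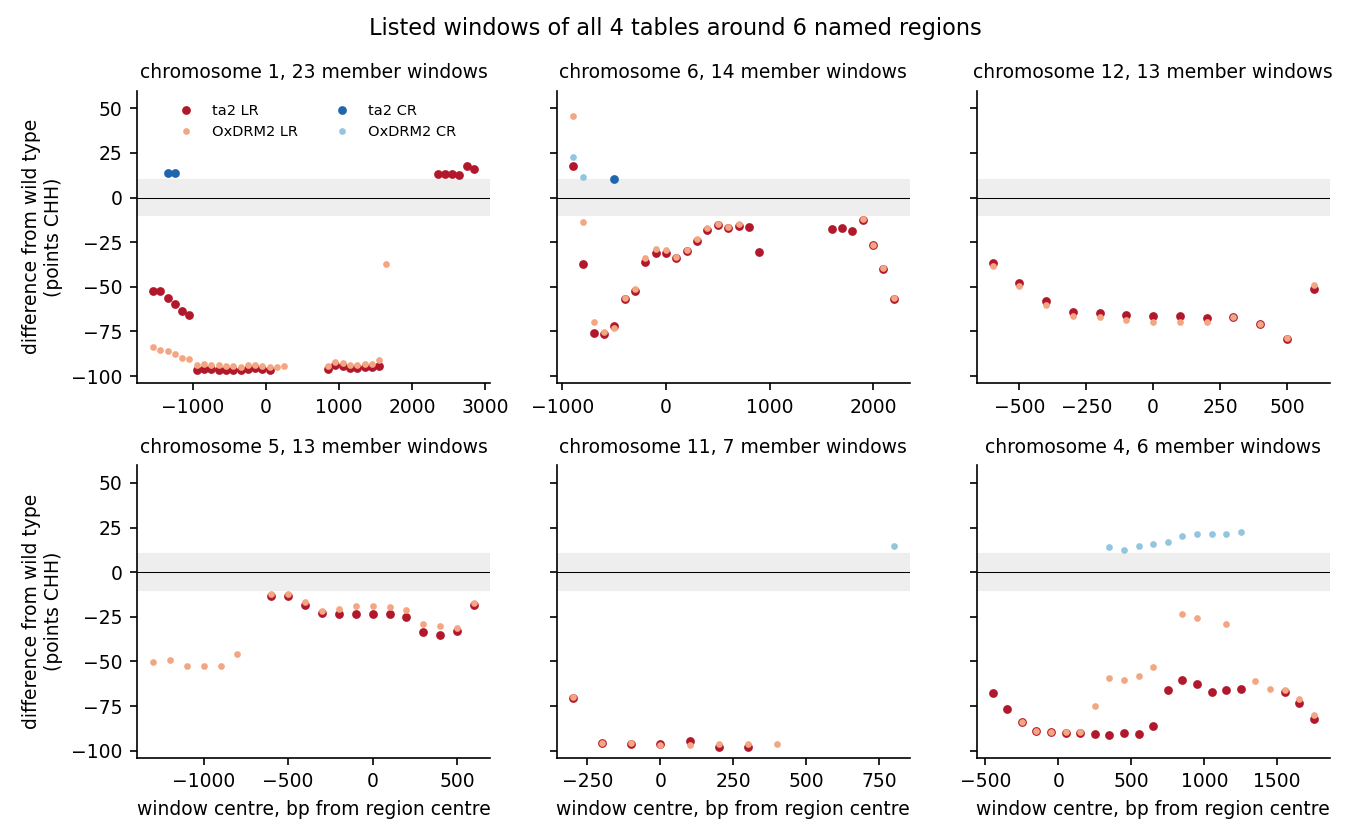
Listed windows of the 4 tables around 6 named regions, as the difference from the wild type in percentage points of CHH methylation against the distance of the window centre from the region centre in bp. Each point is a listed window, positions without a point are not listed, and the grey band covers sizes under 10 points, which the tables do not hold; the 2 LR tables (red tones) overlie each other over most of each region.

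Of the 898 edges, 528, or 58.8%, were followed by a position 100 bp further that no LR table listed. Another 146 were followed by a window hypo in *ta2* LR alone and 139 by a window hypo in *OxDRM2* LR alone, while 69 went on as hypo in both mutants at positions listed in CR, and 16 were followed by a window hyper in an LR table. An edge followed by a position in no LR table is no sharp change where the last member lies near 10 points. In 89 edges, or 9.91%, the last member was below -30 points in both mutants and the next position was in no LR table, and in 27, or 3.01%, it was below -50 points. Within regions, neighbouring members differed by a median of 2.22 points in *ta2* LR and 2.14 in *OxDRM2* LR, and by more than 30 points in 6 and 7 of 650 neighbouring pairs. In 34 of these pairs, both tables gave the same difference for both windows, so that the shift by 100 bp had not changed the value. Why a position is not listed cannot be read from the tables: its difference may be small, its q-value too high, or its cytosines not covered.

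"Lateral root only" holds for the exact position and less so for the sequence around it. At least 1 listed CR window overlapped 733 members, or 64.2%. Since the rule leaves out positions that a CR table lists, and members cannot be hyper in LR, these shares were set beside the 2433636 positions of which the same is true (chosen with the values known). Of those positions, which include any that were not covered, 46.2% were overlapped by a CR window. Hyper windows of *OxDRM2* CR overlapped 59.2% of the members and 42.7% of those positions, and hyper windows of *ta2* CR 32.8% of the members and 20.7% of the positions. Hypo windows of *ta2* CR overlapped 3.24% of the members and 0.853% of the positions, and those of *OxDRM2* CR 0.964% and 0.39%, respectively. Hyper windows of *ta2* LR overlapped 25.5% of the members and 20.2% of the positions, and those of *OxDRM2* LR 28.2% and 26.3%. Over all 3454187 positions, including those the rule leaves out, 60.9% were overlapped by a CR window. Hyper windows overlapped 57.7% of all positions in *OxDRM2* CR and 33.1% in *ta2* CR, close to the members. The shares for hyper windows in LR were 32% in *ta2* and 39.7% in *OxDRM2*, above the members. Hypo windows overlapped 1.1% in *ta2* CR and 0.428% in *OxDRM2* CR, below the members. Neighbouring members share most of their sequence, and these shares were not tested. No CR window overlapped the remaining 408 members, and 102 of the 449 regions were touched by no CR window along their whole length, 23 of them among the 58 regions of 5 or more windows.

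Members were found on all 11 chromosomes compared. Chromosome 1 held the most, 183 or 16.0%, followed by chromosome 6 with 140. Per 1000000 window positions, chromosome 6 was highest with 448 members, chromosomes 1 and 11 had 423 and 389, and the compared part of chromosome 8 and chromosome 2 were lowest with 199 and 228, around 330 for the whole. Members overlap, and the order differed by merged region. Chromosome 11 was then highest with 1.69 regions per Mb, and chromosome 6 had 1.38. Chromosomes 12 and 8 were lowest with 0.908 and 0.929, around 1.3 for the whole. Windows below -50 points in both mutants were found on every one of these chromosomes, from 1 on chromosome 8 to 31 on chromosome 1. The regions were spread widely, with a median gap of 490500 bp between neighbours, and only 15 of 438 gaps were 10 kb or shorter. Those 15 gaps tied 26 regions into 11 groups. The outer 2 Mb of the chromosomes held 157 members, or 13.8%, and 12.2% of all positions.

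**Figure D4:**
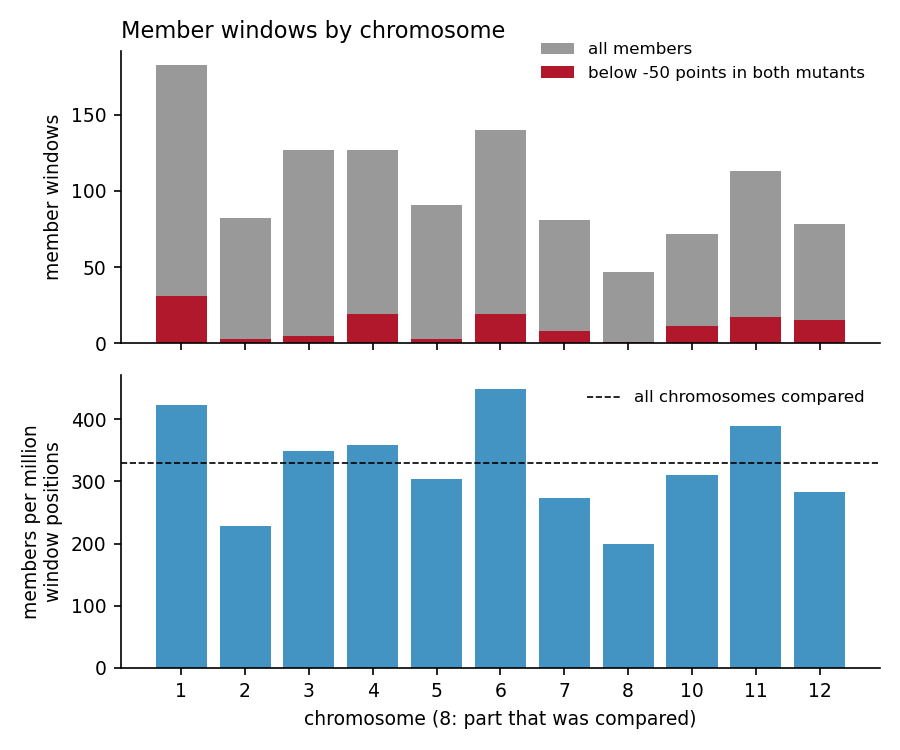
Number of member windows on each chromosome (top, bars from 0), with those below -50 points in both mutants in red, and members per 1000000 window positions (bottom), with the value for all 11 chromosomes as a dashed line. By overlapping windows, chromosome 6 is the densest with 448 members per 1000000 positions and chromosome 8, compared only in part, the sparsest with 199. By merged region the order differs, with chromosome 11 the densest and chromosome 12 the sparsest.

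The genes beside the members could be named in very few cases, because no annotation of RGAP version 7.0 was used here. The study's list of genes whose transcription correlated with promoter CHH methylation gives a promoter bin for part of the rice loci, and was used for the position of the bins alone. The bins of 2 loci fell in member regions, and both were singled out after their values were seen. Members span 0.153% of the sequence, and the share of all listed bins that fell in them is not given here. No excess of bins can therefore be read from these 2 loci. For LOC_Os03g29540, the bin lay in a region on chromosome 3 from 16835101 to 16836300, where 3 members averaged -25.1 points in *ta2* LR and -23.9 in *OxDRM2* LR, and 7 hyper windows of *OxDRM2* CR touched the region with a median gain of 10.8 points. For LOC_Os04g06520, the bin lay in a single member on chromosome 4 from 3409601 to 3410600, at -26.3 points in *ta2* LR and -27.4 in *OxDRM2* LR. In both CR tables, 4 hyper windows touched this member, with median gains of 21.2 points in *ta2* and 24.0 in *OxDRM2*. Of 37 genes of DNA methylation and root initiation, only *RDR2*, an RNA-dependent RNA polymerase gene of RNA-directed DNA methylation, *RL9* and *MCM8* could be placed by a bin, and no member covered any of these 3 bins.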

How the data were processed

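BS-seq of stage 1 initials from *ta2* and *OxDRM2* was read as 4 deposited tables, which give a single value per window for the 2 replicates of each group. BS-Seeker2 (2.1.8) served the authors to place the reads on RGAP version 7.0, and they kept those that mapped once and were no duplicates. The submitters' processing notes also name methylKit, without its role. The authors' deposited tables give a p-value, a q-value and a signed difference in CHH methylation in percentage points for each window, and these comparisons are all they hold. Width, spacing, size of at least 10 points and q under 0.01 were checked on the files. The study's methods describe windows of 50 bp instead.

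Tables were joined by position, and members that overlap or touch were merged. All starts spaced 100 bp apart, as far as the last window listed on a chromosome, counted as positions. The rule and the merging were tested on simulated data. Members, lists and alternatives were chosen with earlier results of these data known. Regions to be named were the 10 with most windows (ties by the lower mean), the 5 of at least 5 windows with the lowest mean over both LR tables, and the one with most windows on each chromosome. Genes to be named were those touched by a named region, which could not be placed here, and 37 genes of DNA methylation and root initiation. No test was made, since the tables chose the members and hold no values per replicate. RNA-seq samples, wild type libraries, DNA sequence, GC content, CHH density, repeats and gene annotation were not analysed here. The software was matplotlib 3.10.9, pandas 2.3.3, numpy 2.4.6 and Python 3.11.15.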

Additional observations from a re-analysis of the deposited data

Results flagged for a closer look

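Losses of the same kind were present in the part of the genome that the comparison left out. On chromosome 9 and the end of chromosome 8, 147 windows were hypo in both LR tables and not listed in *OxDRM2* CR, with medians of -29.98 points in *ta2* LR and -28.9 in *OxDRM2* LR. The *ta2* CR table lists no window at all there, so they cannot be counted as members. Chromosome 9 held 118 of them, 45 below -50 points in both mutants, and its region from 7925501 to 7928100 had 17 windows averaging -74.0 points in *ta2* LR and -66.8 in *OxDRM2* LR. No control sample bears on this signal.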

How the results depend on the processing

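The 1141 members fell to 563, 339 and 132 at limits of -20, -30 and -50 points in both LR tables, and to 46 at -80 points, a limit chosen after seeing the data. They were 408 without those that overlap a CR window and 458 as windows that do not overlap. These follow from counting fewer windows. The number stayed within 1.5 times with p under 1e-10 in both tables (1005), with losses of *OxDRM2* LR within 200 bp (1432) and with 1 chromosome left out (958 to 1094). Regions with 3 or more windows numbered 144, and merging over gaps of up to 1000 bp gave 445. With each region counted once, the median was -19.3 points in *ta2* LR, -18.4 points in *OxDRM2* LR and 1.15 points for *OxDRM2* minus *ta2*. Below -20 points in both, it was -35.7 points in *ta2* LR and -34.0 in *OxDRM2* LR. The share of windows hypo in both LR tables that no CR table lists, 55.3%, was 19.8% when overlap with a CR window was counted, and 74.6% of the 177 windows below -50 points, a limit added after seeing the data. The cause was not tested.

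No paired analysis was possible because each value stands for both replicates together. A replicate could not be left out either. Promoter distances, GC content, CHH density and repeats were not run without a genome of this version. Differences smaller than 10 points are not analysed here.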
